A study of Mus musculus with 12 samples.

Results

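The genes described here encode neuronal regulators of RNA splicing, namely the CELF proteins Celf2 and Celf4, the RBFOX proteins Rbfox1, Rbfox2 and Rbfox3 (known to histologists as NeuN), the NOVA proteins Nova1 and Nova2, and the neuronal ELAVL (Hu) proteins Elavl2, Elavl3 and Elavl4. The members and the gene lists used below were chosen by name, with earlier results of these data known. Their counts beside those of all genes are therefore a description. All 10 were present among the 55487 genes of the deposited table, and all 10 passed the filter on low counts, which left 16233 genes for testing. Whole retinas of WT mice (C57BL/6J) and of 5xFAD mice (strain label Tg6799) were profiled by RNA sequencing, and the animals were aged 1 month or 6 months. Each combination of genotype and age is a group of 3 libraries, 12 in all. 5xFAD mice carry human transgenes with mutations of familial Alzheimer disease under the neuronal Thy1 promoter, and the transgene RNA was not analysed here. The labels do not say whether the libraries of a group came from separate animals, so p-values here cover only the spread among these libraries, which may be technical. In RNA from a whole tissue, fewer cells of a type and less RNA per cell cannot be told apart.

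The members bind pre-mRNA in the nucleus and change which exons are kept. RBFOX proteins recognise a GCATG element through a single RNA recognition motif, NOVA proteins recognise clusters of YCAY through KH domains, CELF proteins bind GU-rich and ELAVL proteins AU-rich or U-rich elements, and the position of the binding site relative to an exon decides whether the exon is included or skipped. CELF and ELAVL proteins also act on mRNA stability and translation in the cytoplasm. In the retina these proteins are best known from ganglion, amacrine and horizontal cells; Rbfox3 and the ELAVL proteins serve as antibody markers of inner retinal neurons.

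Several members are themselves spliced, and the exons that distinguish the family members and their isoforms are shown because the transcript values below refer to them. The sequences were read from the GENCODE M21 transcripts on GRCm38, on the coding strand, and each exon is wholly coding. Capitals mark the bases at which an exon differs from the first one of its set. The 39-base exon of the hinge between the RNA recognition motifs of the ELAVL proteins is exon 6 of 7 in Elavl4-202 (chr4:110209740-110209778, minus strand), Elavl2-201 (chr4:91254141-91254179, minus strand) and Elavl3-201 (chr9:22024674-22024712, minus strand). Elavl2 shared 33 of its 39 bases with Elavl4 (84.6%), and Elavl3 shared 35 (89.7%).
Elavl4 hinge exon: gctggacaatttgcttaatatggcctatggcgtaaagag
Elavl2 hinge exon: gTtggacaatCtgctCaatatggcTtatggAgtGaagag
Elavl3 hinge exon: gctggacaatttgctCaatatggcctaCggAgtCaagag
The 93-base exon within the RNA recognition motif of the RBFOX proteins lies at chr16:7292185-7292277 (plus strand) in Rbfox1, chr15:77105577-77105669 (minus strand) in Rbfox2 and chr11:118502842-118502934 (minus strand) in Rbfox3. Rbfox2 was identical to Rbfox1 at 86 of 93 bases (92.5%) and Rbfox3 at 69 of 93 (74.2%).
Rbfox1 RNA recognition motif exon: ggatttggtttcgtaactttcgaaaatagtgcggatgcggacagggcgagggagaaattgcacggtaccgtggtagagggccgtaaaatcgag
Rbfox2 RNA recognition motif exon: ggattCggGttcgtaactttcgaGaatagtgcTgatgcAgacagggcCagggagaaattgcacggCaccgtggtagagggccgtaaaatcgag
Rbfox3 RNA recognition motif exon: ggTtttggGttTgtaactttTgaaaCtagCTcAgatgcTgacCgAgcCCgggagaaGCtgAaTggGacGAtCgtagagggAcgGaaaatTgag
Further downstream Rbfox1 and Rbfox2 each carry an alternative pair of exons, a 40-base exon typical of brain (chr16:7363865-7363904 and chr15:77094451-77094490) and a 43-base exon typical of muscle (chr16:7369801-7369843 and chr15:77091812-77091854). The 40-base exons of the paralogs were 85% identical and the 43-base exons 62.8%.
Rbfox1 40-base exon: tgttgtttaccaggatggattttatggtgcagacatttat
Rbfox2 40-base exon: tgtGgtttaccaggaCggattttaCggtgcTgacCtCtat
Rbfox1 43-base exon: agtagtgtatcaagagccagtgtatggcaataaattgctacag
Rbfox2 43-base exon: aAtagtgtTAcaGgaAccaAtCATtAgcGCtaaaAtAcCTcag

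The libraries held 10.9 to 19.6 M expected counts each. In libraries from 5xFAD at 1 month, counts lay more on genes with long transcripts than elsewhere. Each gene was given 1 length for all libraries, the mean over its transcripts weighted by their counts in the 12 libraries. The count-weighted mean transcript length was 4195 to 4227 nt there, against 3579 to 3790 nt in WT at 1 month, 3700 to 4019 nt in WT at 6 months and 3632 to 3730 nt in 5xFAD at 6 months. Of the 10 members, 8 belong to the longest of 3 equal length groups of tested genes (transcripts of 3578 nt or more), and Rbfox1 and Rbfox3 to the middle group. Ribosomal RNA made up 1.11%, 0.446% and 0.325% of 5xFAD 6-month library 1, 5xFAD 6-month library 2 and WT 1-month library 2, the 3 highest values. The 11 rod markers analysed (most abundant Gnat1 and Sag) summed to 31300 to 36270 CPM in every library (CPM, counts in each M of library counts). Sums over marker lists are CPM without scaling between libraries, whereas levels of single genes are CPM with TMM scaling. At 6 months the rod marker sums did not overlap, at 31310 to 35260 CPM in WT and 36030 to 36270 CPM in 5xFAD. Their part in the members' 6-month values was not tested.

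Celf2, Celf4, Rbfox1, Rbfox2, Nova2 and Elavl3 were higher in 5xFAD than in WT at 1 month, and Celf2, Rbfox1, Rbfox2 and Elavl3 were lower at 6 months. At 1 month 6 of 10 rose past the threshold of an edgeR adjusted p below 0.05 and 0 fell, beside 19.6% of all tested genes called (10.7% higher). The median log2 fold change was 0.49 over the members and -0.04 over all genes. At 6 months 4 of 10 fell and 0 rose, beside 6.38% of all genes called (3.89% lower), with medians of -0.40 and 0.00. With age, 5 members rose and 0 fell in WT, beside 10.5% of all genes called, and 7 fell and 0 rose in 5xFAD, beside 23.2% called. The medians with age were 0.40 over the members and -0.01 over all genes in WT, and -0.61 and 0.03 in 5xFAD. The genotype difference at 6 months minus that at 1 month, the interaction, was below 0 and called in 7 members, beside 25% of all genes called (13.3% lower), with medians of -0.92 and 0.06. The 2 genotype comparisons and the 2 age comparisons draw on the same 4 groups, so the 5 counts are not separate evidence.

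**Figure D1:**
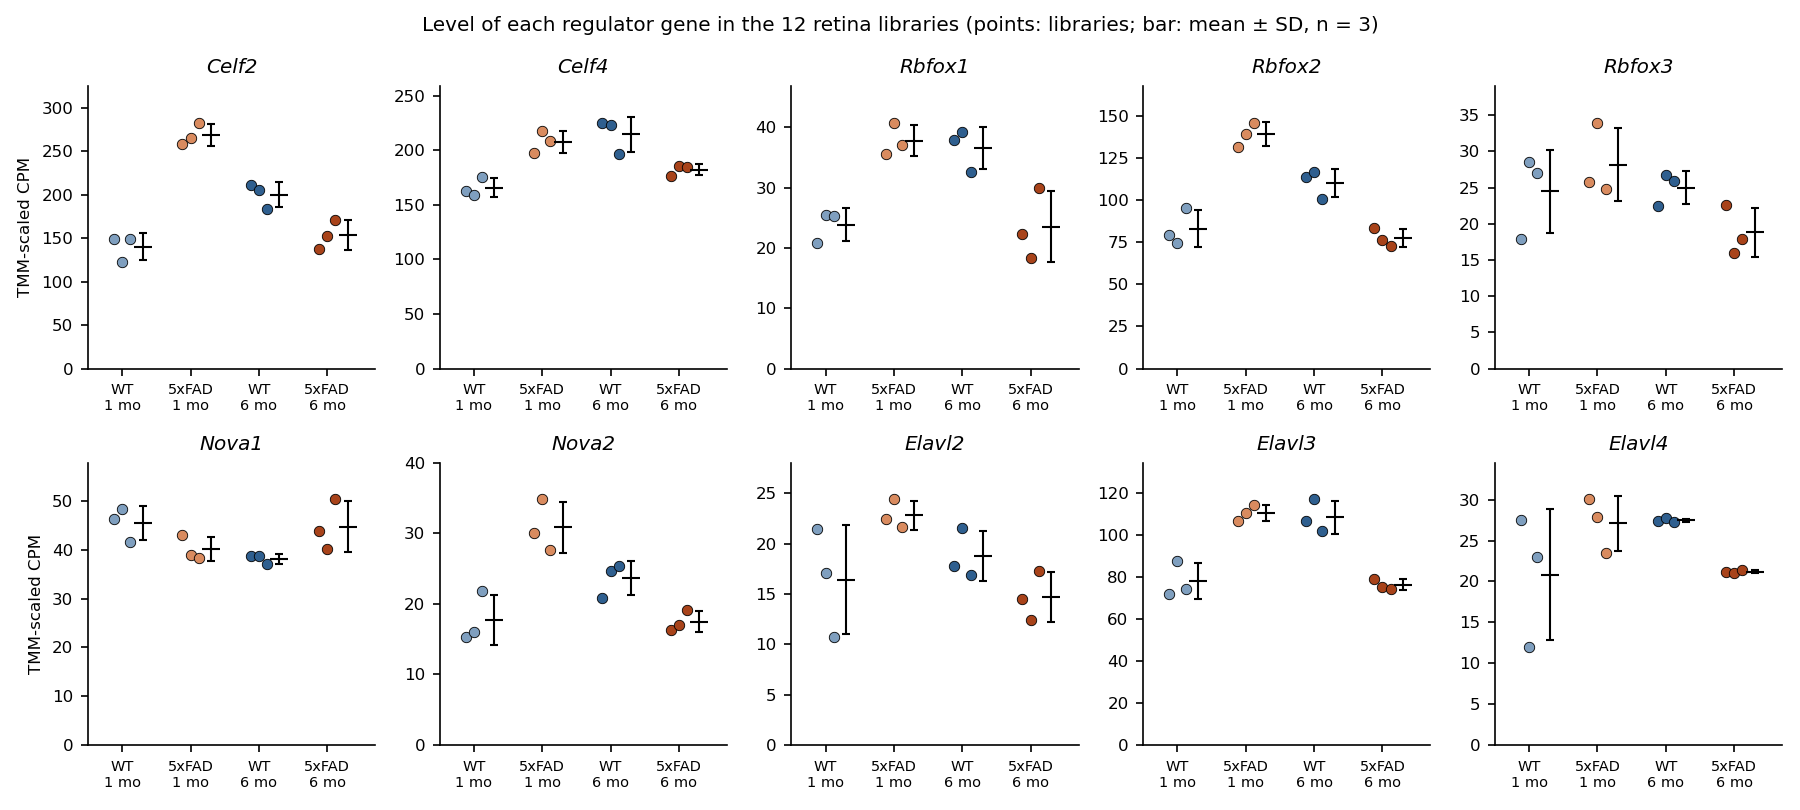
Level of each of the 10 genes in TMM-scaled CPM on a linear axis from 0, with 1 point per library and the mean ± SD of each group of 3. In Celf2, Celf4, Rbfox1, Rbfox2, Nova2 and Elavl3 all 5xFAD libraries lie above all WT libraries at 1 month and below them at 6 months; Nova1 does not follow this pattern.

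Celf2, a CELF protein of brain, muscle and heart (GRCm38 chr2:6539694-7509563, minus strand), had the largest difference among the members at 1 month in the counts as deposited, but not with the length and GC trend described below removed (0.53, against -0.73 for Nova1 and 0.61 for Rbfox1). Its level was 149.3, 122.4 and 148.9 CPM in WT and 258.3, 264.5 and 282.4 CPM in 5xFAD at 1 month. Every 5xFAD library was above every WT library, and the group means of 140.2 ± 15.4 and 268.4 ± 12.5 CPM (SD, n = 3) gave a log2 fold change of 0.94 ± 0.10 (SE, edgeR adjusted p = 2.64e-06). At 6 months Celf2 stood at 210.6, 205.4 and 183.5 CPM in WT and at 137.2, 152.3 and 170.7 CPM in 5xFAD. The order of the genotypes was the opposite of that at 1 month, again without overlap, with a log2 fold change of -0.38 ± 0.10 (edgeR adjusted p = 0.0246). Celf2 rose with age in WT by 0.51 ± 0.10 on the log2 scale and fell with age in 5xFAD by 0.81 ± 0.10 (edgeR adjusted p = 0.00234 and 6.93e-06). Its interaction was -1.32 ± 0.14 (edgeR adjusted p = 1e-06). The 6-month call was lost without WT library 1 or 2 (edgeR adjusted p = 0.114 and 0.102) or without 5xFAD library 1 or 2 (0.109 and 0.0758).

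Celf4, the CELF protein of excitatory neurons, moved less. At 1 month its values were 162.9, 159.0 and 175.9 CPM in WT and 197.2, 217.5 and 208.7 CPM in 5xFAD, with no overlap and a log2 fold change of 0.32 ± 0.09 (edgeR adjusted p = 0.0109). At 6 months it measured 225.2, 223.0 and 196.5 CPM in WT and 176.7, 185.6 and 184.6 CPM in 5xFAD. The groups did not overlap, but the log2 fold change of -0.24 ± 0.09 did not pass the edgeR threshold (adjusted p = 0.109). Celf4 rose with age in WT (0.37 ± 0.09, edgeR adjusted p = 0.00766), and its interaction of -0.56 ± 0.12 passed (edgeR adjusted p = 0.00179). Its change with age in 5xFAD, -0.19 ± 0.09, did not (edgeR adjusted p = 0.128). The 1-month call was lost without WT library 2 (edgeR adjusted p = 0.0571) or without 5xFAD library 2 (0.062), and the 6-month difference was called without WT library 3 (-0.30, adjusted p = 0.0362).

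Rbfox2, the most widely expressed RBFOX gene (chr15:77078990-77307004, minus strand), moved most among the RBFOX genes at 1 month in the counts as deposited; with the length and GC trend removed Rbfox1 did (0.61, against 0.41). It stood at 79.3, 74.6 and 95.5 CPM in WT and at 131.9, 139.7 and 146.2 CPM in 5xFAD at 1 month, a log2 fold change of 0.74 ± 0.11 (edgeR adjusted p = 4.42e-05). At 6 months the values were 113.9, 116.7 and 100.8 CPM in WT and 83.6, 76.7 and 72.8 CPM in 5xFAD, a log2 fold change of -0.51 ± 0.11 (edgeR adjusted p = 0.00572). Groups did not overlap at either age, and the interaction was -1.25 ± 0.15 (edgeR adjusted p = 2.89e-06). With age Rbfox2 rose in WT by 0.41 ± 0.11 and fell in 5xFAD by 0.84 ± 0.11 on the log2 scale (edgeR adjusted p = 0.0146 and 8.23e-06). The rise in WT was lost without WT 1-month library 2 (edgeR adjusted p = 0.0941) or without WT 6-month library 2 (0.063).

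Rbfox1, a neuronal and muscle splicing factor encoded over more than a megabase (chr16:5885355-7411526, plus strand), followed the same order at a lower level. Its 1-month values were 20.8, 25.5 and 25.3 CPM in WT and 35.7, 40.8 and 37.1 CPM in 5xFAD, a log2 fold change of 0.66 ± 0.17 (edgeR adjusted p = 0.00681). At 6 months they were 38.0, 39.2 and 32.7 CPM in WT and 22.3, 18.4 and 30.0 CPM in 5xFAD, a log2 fold change of -0.63 ± 0.17 (edgeR adjusted p = 0.0233). Groups did not overlap, although 5xFAD library 3 lay close to the lowest WT library at 6 months. The changes with age were 0.62 ± 0.17 in WT and -0.68 ± 0.17 in 5xFAD (edgeR adjusted p = 0.0186 and 0.00493), and the interaction was -1.30 ± 0.24 (edgeR adjusted p = 2.90e-04). Without the 3 libraries richest in ribosomal RNA, which leaves 5xFAD at 6 months with library 3 alone, the 6-month difference was -0.29 (edgeR adjusted p = 0.535) and the change with age in 5xFAD -0.32 (0.306). The 6-month call was also lost without WT library 1 or 2 or 5xFAD library 1 or 2 (edgeR adjusted p between 0.0703 and 0.116), and the rise in WT without WT 1-month library 1 or WT 6-month library 1 or 2 (0.0613 to 0.0772).

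Rbfox3, the NeuN antigen (chr11:118489762-118911597, minus strand), showed no called genotype difference at either age. The 1-month values of 17.9, 28.5 and 27.1 CPM in WT and 25.8, 34.0 and 24.9 CPM in 5xFAD overlapped (log2 fold change 0.20 ± 0.19, edgeR adjusted p = 0.499). At 6 months WT measured 22.4, 26.7 and 25.9 CPM and 5xFAD 22.6, 15.9 and 17.96 CPM, which also overlapped (-0.41 ± 0.19, edgeR adjusted p = 0.218). Rbfox3 fell with age in 5xFAD (-0.58 ± 0.19, edgeR adjusted p = 0.0312), a call that was lost in 3 of 6 fits with 1 library left out, with adjusted p up to 0.18 without 5xFAD 1-month library 2. WT library 1 at 1 month was the lowest of its group, and without it the change with age in WT went from 0.03 to -0.11, neither of them called. The interaction of -0.62 was not called (edgeR adjusted p = 0.0989), except without 5xFAD 6-month library 1 (-0.81, adjusted p = 0.0356).

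Nova2, the NOVA protein of cortical and many other neurons (chr7:18925888-18965319, plus strand), rose in 5xFAD at 1 month. Its values were 15.3, 16.0 and 21.7 CPM in WT and 30.0, 34.8 and 27.6 CPM in 5xFAD, without overlap (log2 fold change 0.80 ± 0.18, edgeR adjusted p = 0.00223). At 6 months it stood at 20.9, 24.7 and 25.3 CPM in WT and 16.3, 17.1 and 19.1 CPM in 5xFAD, also without overlap, but the log2 fold change of -0.43 ± 0.17 was not called (edgeR adjusted p = 0.144). Nova2 fell with age in 5xFAD (-0.82 ± 0.18, edgeR adjusted p = 0.00165), and the interaction was -1.24 ± 0.25 (edgeR adjusted p = 7.36e-04). The change with age in WT, 0.42 ± 0.17 (edgeR adjusted p = 0.135), was called only without WT 1-month library 3 (0.63, edgeR adjusted p = 0.0344) among the fits with 1 library left out.

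Nova1, its paralog with a hindbrain and spinal cord bias in the embryo (chr12:46694517-46818929, minus strand), was the member with the opposite sign in every comparison. Nova1 measured 46.4, 48.3 and 41.7 CPM in WT and 42.97, 38.9 and 38.4 CPM in 5xFAD at 1 month, and 38.7, 38.7 and 37.0 CPM in WT and 43.8, 40.1 and 50.3 CPM in 5xFAD at 6 months. The groups overlapped at 1 month and did not at 6 months, and neither log2 fold change was called (-0.18 ± 0.13 and 0.23 ± 0.13, edgeR adjusted p = 0.345 and 0.303). The interaction of 0.41 ± 0.18 was not called either (edgeR adjusted p = 0.0926).

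Among the ELAVL genes, Elavl3 (HuC, chr9:22015005-22052023, minus strand), a pan-neuronal Hu protein, gave called differences in all 5 comparisons. It stood at 71.9, 87.7 and 74.1 CPM in WT and 106.4, 110.3 and 114.3 CPM in 5xFAD at 1 month (log2 fold change 0.50 ± 0.10, edgeR adjusted p = 0.00118). At 6 months the values were 106.5, 116.9 and 101.7 CPM in WT and 79.2, 75.4 and 74.1 CPM in 5xFAD (-0.51 ± 0.10, edgeR adjusted p = 0.00395). The groups were apart at both ages, and the 6-month 5xFAD values lay within the range of WT at 1 month. The changes with age were 0.48 ± 0.10 in WT and -0.53 ± 0.10 in 5xFAD, and the interaction was -1.01 ± 0.14 (edgeR adjusted p = 0.00381, 5.93e-04 and 2.04e-05).

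Elavl2 (HuB, chr4:91250763-91400785, minus strand), which also occurs in the germ line, varied widely among the WT libraries at 1 month. Its values there were 21.4, 17.1 and 10.7 CPM, against 22.4, 24.4 and 21.6 CPM in 5xFAD, and the log2 fold change of 0.47 ± 0.21 was not called (edgeR adjusted p = 0.125), except without WT library 1 (0.74, adjusted p = 0.0289). Elavl2 at 6 months measured 17.8, 21.6 and 16.9 CPM in WT and 14.5, 12.4 and 17.3 CPM in 5xFAD, which overlapped (-0.35 ± 0.21, edgeR adjusted p = 0.376). It fell with age in 5xFAD (-0.63 ± 0.21, edgeR adjusted p = 0.0361), and its interaction of -0.82 ± 0.30 passed narrowly (edgeR adjusted p = 0.0485). The interaction was lost in 9 of 12 fits with 1 library left out (adjusted p up to 0.12, without WT 6-month library 2), and the fall with age in 5 of 6 (up to 0.133, without 5xFAD 6-month library 2).

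Elavl4 (HuD, chr4:110203722-110351909, minus strand), a Hu protein of differentiating neurons, passed no test under the filter on low counts used here. At 1 month it measured 27.6, 11.95 and 22.9 CPM in WT and 30.0, 27.9 and 23.4 CPM in 5xFAD, which overlapped (0.38 ± 0.21, edgeR adjusted p = 0.216; 0.65 and 0.0452 without WT library 1). Elavl4 at 6 months was nearly constant within each genotype, at 27.4, 27.7 and 27.3 CPM in WT and 21.2, 21.02 and 21.4 CPM in 5xFAD. The groups did not overlap, yet in a model whose spread is shared across all groups and genes of like level the log2 fold change of -0.38 ± 0.21 was not called (edgeR adjusted p = 0.313). The interaction was -0.75 ± 0.29 (edgeR adjusted p = 0.0624), and -1.05 (0.0117) without WT 1-month library 1. With a filter of 1 count over all libraries it was called at -0.79 (edgeR adjusted p = 0.0179).

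Counted without a test, 5xFAD and WT libraries did not overlap in 7 members at 1 month and in 8 at 6 months. Of all tested genes, 37.6% and 24.2% did not overlap, beside the 19.6% and 6.38% called. WT 1-month and 6-month libraries were apart in 6 members and those of 5xFAD in 9, against 30.7% and 36.5% of all genes. The 7 members at 1 month were the 6 called genes and Elavl2.

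Since the libraries differed in how far their counts lay on genes with long transcripts, the differences were also computed after a correction. It takes out, library by library, the dependence of counts on transcript length and GC content over all genes. Of genes in the longest group, 27% were called higher and 2.44% lower in 5xFAD at 1 month, and 0.74% higher and 9.24% lower at 6 months. The called members took the same directions. Nova1, also in the longest group, had the opposite sign at both ages and was not called. The 10 members together held 0.0869% to 0.0927% of all counts in 5xFAD at 1 month, against 0.0583% to 0.0659% in WT at 1 month, 0.0749% to 0.0844% in WT at 6 months and 0.0606% to 0.0656% in 5xFAD at 6 months. With the trend removed, the 1-month count went from 6 higher and 0 lower to 4 higher and 1 lower, and the 6-month count from 0 higher and 4 lower to 1 higher and 2 lower. Over all genes the calls with the trend removed were 11.5% at 1 month (750 higher and 1117 lower) and 9.58% at 6 months (1170 higher and 382 lower). The larger direction among all genes thus turned at both ages, from 1732 higher and 1446 lower at 1 month and 403 higher and 632 lower at 6 months.

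**Figure D2:**
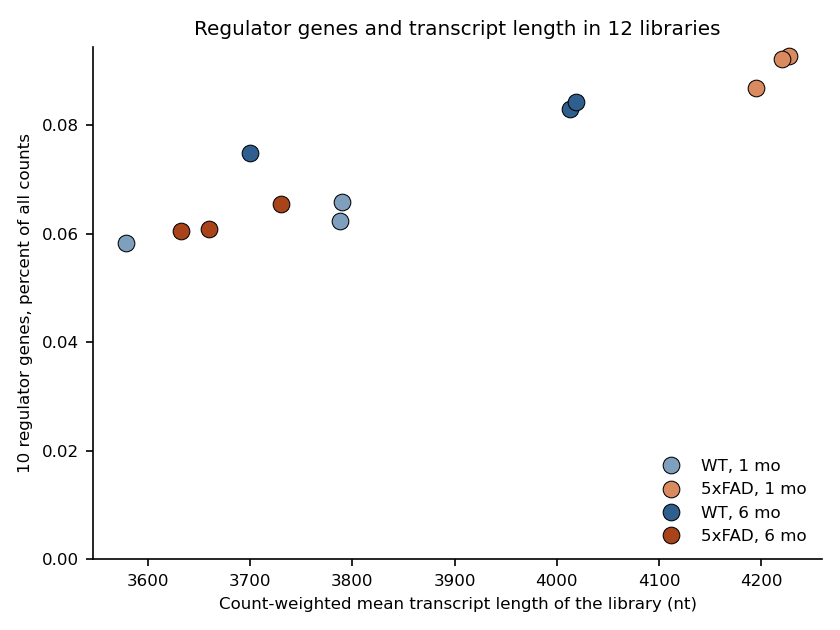
Share of all counts held by the 10 genes (percent, axis from 0) against the count-weighted mean transcript length of the library in nucleotides, 1 point per library and 3 per group. The 5xFAD 1-month libraries lie at the upper right, at 4195 to 4227 nt and 0.0869% to 0.0927%; the 5xFAD 6-month libraries lie at 3632 to 3730 nt and 0.0606% to 0.0656%.

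Rbfox1 and Elavl3 kept a called genotype difference at both ages with the trend removed. Rbfox1 went from 0.66 to 0.61 at 1 month and from -0.63 to -0.58 at 6 months (edgeR adjusted p = 0.0105 and 0.0178). Elavl3 was 0.34 at 1 month and -0.36 at 6 months (edgeR adjusted p = 0.018 and 0.0157). Celf2 and Rbfox2 stayed called at 1 month at 0.53 and 0.41, and lost their 6-month calls at -0.13 and -0.26 (edgeR adjusted p = 0.297 and 0.0788). Celf4 and Nova2 lost their 1-month calls at 0.22 and 0.48 (edgeR adjusted p = 0.0606 and 0.0741).

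Nova1, with long transcripts (7038 nt on average, weighted by counts) of low GC content (38.5%), moved the other way. With the trend removed it was -0.73 ± 0.13 at 1 month and 0.54 ± 0.13 at 6 months, both called (edgeR adjusted p = 3.48e-04 and 0.00667). It was also called lower with age in WT (-0.61), higher with age in 5xFAD (0.67) and higher in the interaction (1.28, edgeR adjusted p = 1.41e-05). The sign of Nova1 was the same with and without the trend in all 5 comparisons; its side of the threshold was not.

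In the interaction with the trend removed, 6 members remained called lower and Nova1 was called higher, beside 19.9% of all genes called. The larger direction among all genes turned here too, from 1892 higher and 2162 lower as fitted to 2174 higher and 1050 lower. Rbfox1 stood at -1.19, Elavl3 at -0.69, Rbfox2 at -0.68, Nova2 at -0.68, Celf2 at -0.66 and Celf4 at -0.33. Nova2 lay just inside the threshold (edgeR adjusted p = 0.05 after rounding), and Elavl2 was not called (-0.41, adjusted p = 0.318). With age in WT, Rbfox2 lost its call (0.23, edgeR adjusted p = 0.113). With age in 5xFAD, Nova2 and Elavl2 lost theirs (-0.36 and -0.43, edgeR adjusted p = 0.168 and 0.137).

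**Figure D3:**
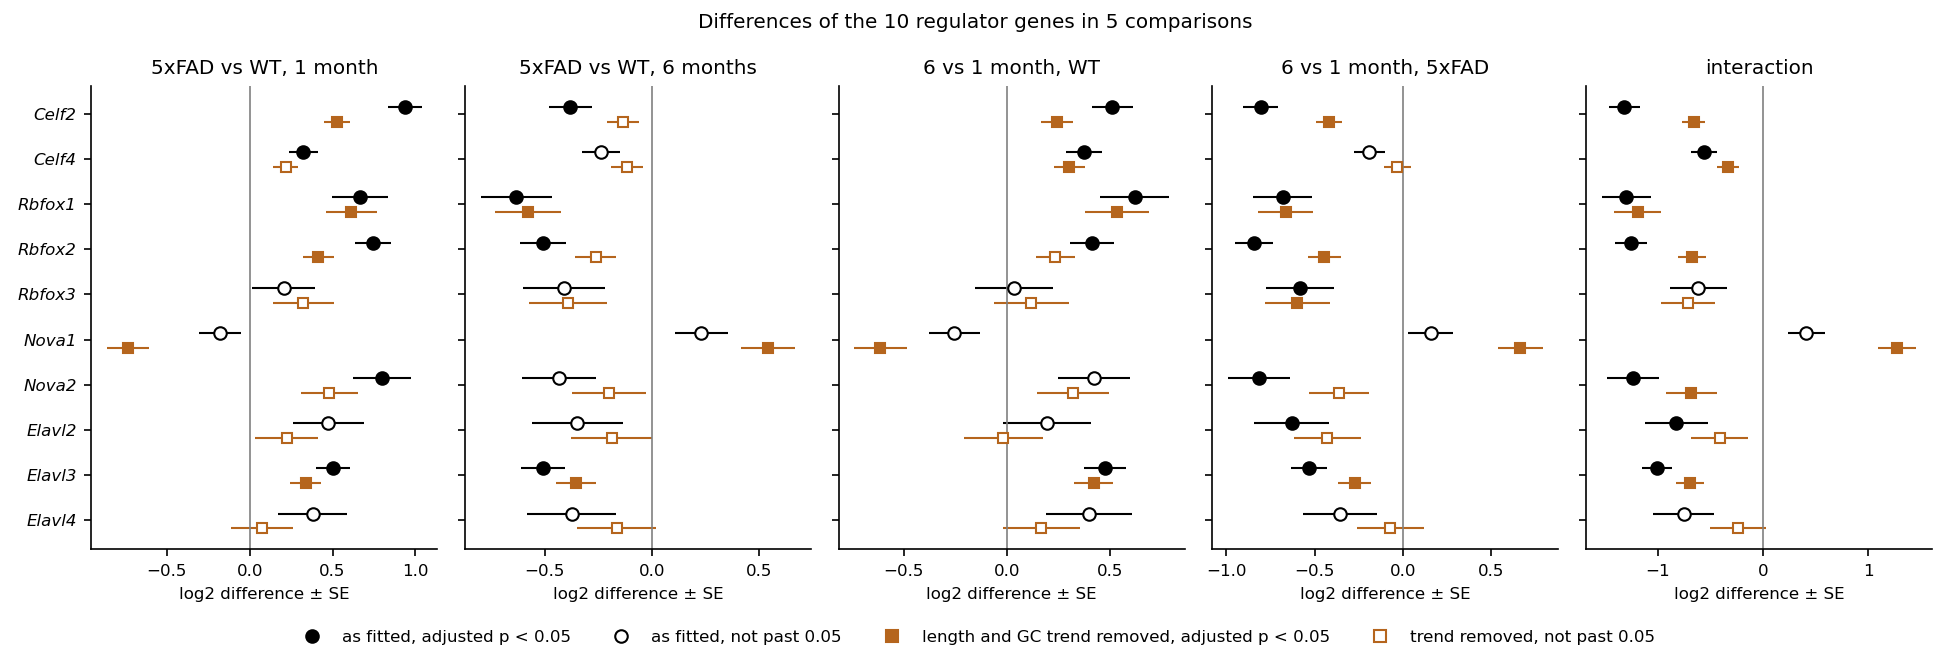
Log2 difference ± SE of each gene in the 5 comparisons, as fitted by edgeR (black circles) and after correction for transcript length and GC content (brown squares); filled symbols have an adjusted p below 0.05. At 1 month Celf2 lies at 0.94 and at 0.53 with the trend removed, Rbfox1 at 0.66 and 0.61, and Nova1 at -0.18 and -0.73.

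Per unit of transcript length, Celf4 and Celf2 were the most abundant members in every group. In WT at 1 month Celf4 stood at 105 ± 13.7 TPM (transcripts in each M of transcripts; SD, n = 3), Celf2 at 49.1 ± 9.04, Elavl3 at 33.8 ± 1.22 and Rbfox2 at 28.3 ± 5.39 TPM. Rbfox3 (18.8 ± 4.34), Rbfox1 (17.9 ± 2.16), Nova1 (15.1 ± 2.02), Elavl4 (12.5 ± 5.61) and Elavl2 (11.03 ± 1.16 TPM) followed, each overlapping its neighbour in that order, and Nova2 was lowest at 4.56 ± 1.09 TPM. Elavl3 and Rbfox2 overlapped in all 4 groups and changed places in 5xFAD at 1 month, where Rbfox2 stood at 64.3 ± 10.9 TPM and Elavl3 at 55.7 ± 2.64 TPM. Nova1 ranked from 6th in 5xFAD at 6 months (15.7 ± 3.54 TPM) to 9th in 5xFAD at 1 month (16.0 ± 2.07 TPM) while its own level differed little, since the genes around it moved. TPM were computed from annotated lengths weighted by each library's own transcript counts, so they carry both the level and the split among transcripts.

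Across the 12 libraries, the log2 CPM of the members ran together in most pairs, as a description of libraries that share their groups and their length composition. Celf2 and Rbfox2 were the closest pair (Pearson r = 0.921 over 12 libraries), followed by Rbfox2 with Nova2 (0.899) and Celf2 with Nova2 (0.888). Nova1 was negatively related to all 9 others, from -0.743 with Celf4 to -0.0956 with Elavl2. Rbfox3 and Elavl4 were nearly unrelated (0.0174). Among 13279 other protein-coding genes, those with the profile most like a member were Hcfc1 for Rbfox2 (r = 0.992), Zfp871 and Sphkap for Celf2 (0.988 and 0.984), Acly for Nova2 (0.971), Zbtb7a for Celf4 (0.971), Setd2 for Rbfox1 (0.952), Map3k13 for Elavl3 (0.95), Brd3 for Elavl2 (0.934), Nrxn2 for Rbfox3 (0.932), Zfp317 for Nova1 (0.928) and Cyb5b for Elavl4 (0.927).

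The transcript table listed 109 transcripts of the 10 genes, of which 14 were at 0 in every library and 47 had enough counts for a test of their share of the gene. Among the 47, the 2 Nova2 transcripts had equal counts in every library, so their shares stayed at 50% and could not be called. No share of a member transcript was called by edgeR in either genotype comparison or either age comparison, where 0.294% (1 month), 0.156% (6 months), 0.17% (age in WT) and 0.384% (age in 5xFAD) of 34670 tested transcripts were called. Unadjusted p fell below 0.05 for 13, 10, 6 and 10 of the 47, in the same order, beside 12.7%, 10.5%, 10.5% and 13.9% of all tested transcripts. With limma 2, 2, 0 and 6 of the 47 were called, beside 2.54%, 1.03%, 0.946% and 3.07% of all. In the interaction 4 of 47 were called, beside 2.69% of all tested transcripts. Estimates for near-identical transcripts can swing between 0 and large counts in replicates. Of the member transcripts 19 did so within a group (0 in one library and at least 50 counts in another), 6 of them in Elavl2, 5 in Elavl4 and 4 in Celf2.

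Rbfox1-201, the 3061-nt model that holds most Rbfox1 counts, was one of the called shares in the interaction. At 1 month it took 96.6%, 98.1% and 97.3% of Rbfox1 counts in the WT libraries and 88.3%, 87.5% and 78.9% in those of 5xFAD. At 6 months its share was 90.2%, 86.7% and 85.5% for WT libraries and 98.9%, 97.9% and 99.3% for 5xFAD libraries. The share was thus lower in 5xFAD at 1 month and higher at 6 months, without overlap, but neither difference was called (edgeR adjusted p = 0.112 and 0.107). The interaction in log2 odds was 6.19 ± 0.92 and was called (edgeR adjusted p = 0.0138). The call was lost in 1 of 12 fits with 1 library left out (adjusted p = 0.0509). The next most counted model was Rbfox1-205 (chr16:5885355-7353045, 1504 nt), which starts upstream of Rbfox1-201 (chr16:6349138-7411526). This shorter model lacks the last exons and stops before the 40-base and 43-base exons. Rbfox1-205 had 5.93, 0 and 2.85 counts in WT and 36.3, 46.1 and 47.1 counts in 5xFAD at 1 month, and at 6 months 35.2, 78.5 and 37.0 counts in WT and 0, 4.79 and 2.75 counts in 5xFAD.

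The other called shares belonged to Rbfox3-204, Rbfox2-213 and Elavl4-202, each with groups at 0, so that no odds ratio is given here. Rbfox3-204 was listed at 0 in all WT 1-month and all 5xFAD 6-month libraries, with 9.62, 50.8 and 43.3 counts in 5xFAD at 1 month and 10.7, 91.8 and 37.3 in WT at 6 months. Rbfox2-213, an 882-nt model, had 28.8, 25.7 and 46.0 counts in 5xFAD at 1 month and 36.8, 34.3 and 29.9 in WT at 6 months, and at most 4.62 counts in a library of the other groups. Elavl4-202, a 4024-nt model, was at 0 in all 5xFAD 6-month libraries and at 132, 119 and 223 counts in WT of that age, while the Elavl4 gene total differed far less. The edgeR adjusted p of these 3 interactions were 0.0294, 0.0345 and 0.0359. They were lost in 6, 8 and 9 of 12 fits with 1 library left out, and all 3 without the libraries richest in ribosomal RNA (adjusted p = 0.0779, 0.105 and 0.119).

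Short transcript models took a larger part of the members' pooled counts in 5xFAD at 1 month and in WT at 6 months than in the other groups. This description, chosen after the values were seen and given with no test, counts the transcripts under 0.5 times the length of the gene's most counted one. Over the 10 genes at 1 month they held 2.17%, 1.74% and 2.43% of counts in the WT libraries and 6.64%, 7.94% and 8.16% in the 5xFAD libraries. At 6 months the share was 6.53%, 7.14% and 4.98% in WT and 4.01%, 3.29% and 2.38% in 5xFAD. The same quantity over all tested genes stayed between 5.78% and 6.21% in all 12 libraries, and over the longest length group between 7.32% and 8.45%. Celf4 ran from 1.93% in a WT 1-month library to 13.5% in a 5xFAD 1-month library, Rbfox1 from 0.749% to 21.1%, and Celf2 from 1.34% to 11.5%. The order was not that of every gene. In Nova1 the short models held between 0% and 6.91%, with overlap between genotypes at both ages, and Nova2 has no short model. In Rbfox3 the 1-month libraries overlapped (means of 0.331% in WT and 0.557% in 5xFAD), and WT at 6 months was highest at 5.37%. In Elavl4 WT was lower at 6 months (1.00%) than at 1 month (1.86%), and in Elavl3 the short model was listed at 0 in all 1-month libraries and its mean was highest in 5xFAD at 6 months (0.731%).

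**Figure D4:**
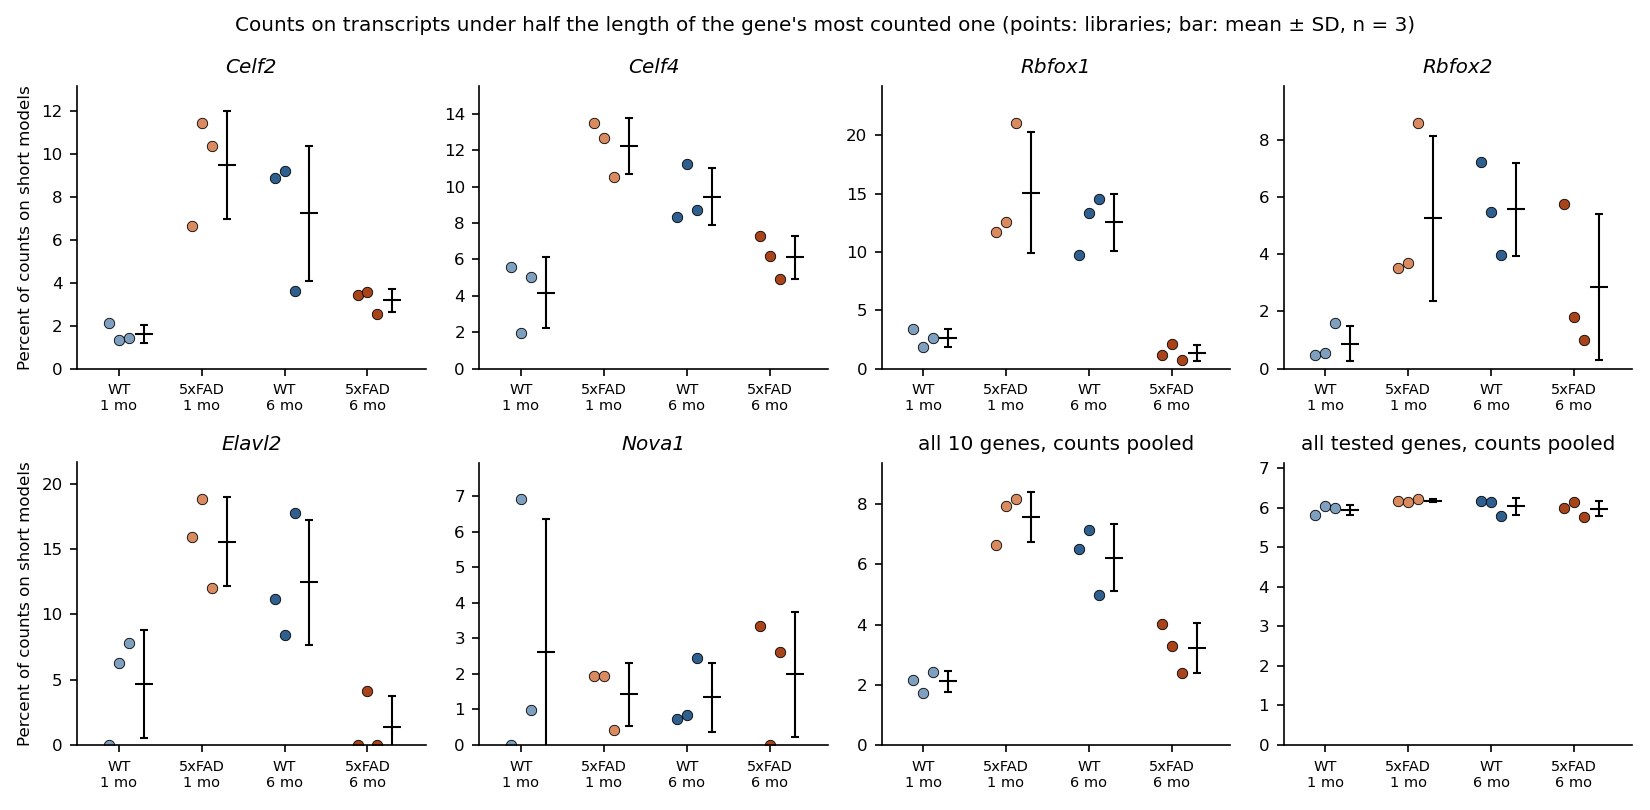
Percent of a gene's counts on transcripts under 0.5 times the length of its most counted transcript, by library (points) with the mean ± SD of each group of 3, for 6 of the genes, for all 10 pooled and for all tested genes pooled; axes start at 0. The 10 genes pooled stand at 1.74% to 2.43% in WT and 6.64% to 8.16% in 5xFAD at 1 month, while all tested genes lie between 5.78% and 6.21%.

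Retained-intron models, one of the transcript classes the study set out to compare, carried at most 9.05% of the counts of any of these genes in a library. In Celf4 the class held 1.6%, 1.05% and 2.77% of its counts at 1 month in WT and 4.03%, 5.07% and 4.04% for 5xFAD, which did not overlap. At 6 months Celf4 overlapped, at 4.46%, 3.56% and 1.84% in WT and 3.65%, 2.46% and 1.66% in 5xFAD. The main Celf4 retained-intron model was tested as a share and was not called in any comparison. In Celf2 the class held 0.305% to 3.98% of counts, and in Rbfox2 it was listed at 0. The highest shares were 9.05% in Elavl2 and 6.91% in Nova1, both in WT 1-month library 2. They came from 5.25 and 11.9 counts on the 2 Elavl2 models of the class and 37.2 counts on the Nova1 model. In Elavl2 the genotypes overlapped at 1 month, and at 6 months the class held 2.41%, 3.95% and 1.98% in WT and was listed at 0 in all 5xFAD libraries. In WT at 6 months these were at most 14.7 counts on Elavl2-215 and 5.58 on Elavl2-210. Both models averaged under 10 counts over the libraries, so neither share was tested.

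The inclusion of the exons shown above was read from the transcript counts and was not tested between groups. The 40-base brain exon was included in 97.9% to 100% of the informative Rbfox1 counts per library and 94.2% to 100% of the Rbfox2 counts, and the 43-base muscle exon in at most 2.11% and 5.77%. The 93-base RNA recognition motif exon was included in 99% of Rbfox2 counts and 96.2% of Rbfox3 counts, summed over libraries. The hinge exon was included in 88.7% of Elavl4 counts and 87.5% of Elavl2 counts. For the motif exon of Rbfox1 and the hinge exon of Elavl3 the table lists no transcript that spans the exon without it, so inclusion cannot be measured there. Single libraries ranged from 49.8% to 100% in Elavl4 and from 41.6% to 100% in Elavl2, the 2 genes with the most transcripts that switch between 0 and many counts within a group. The 72-base exon of Nova1, whose sequence is not shown, was included throughout (100%). Only 1 listed model spans that exon without it, and it had 0 counts in every library.

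Of 19 other splicing regulators listed from the same and related families, 18 were tested. At 1 month 3 rose and 2 fell, and at 6 months 1 rose and 1 fell, beside 19.6% and 6.38% of all tested genes called. The medians were 0.09 and -0.02, beside -0.04 and 0.00 over all genes. Msi2, a Musashi RNA-binding protein of photoreceptors and other neurons, went from 304 ± 11.4 CPM in WT to 455 ± 13.04 CPM in 5xFAD at 1 month (log2 fold change 0.58 ± 0.08, edgeR adjusted p = 4.65e-05). Mbnl2, a muscleblind protein that promotes adult splicing patterns, rose by 0.45 ± 0.09 and Celf1 by 0.44 ± 0.09 on the log2 scale, while Srrm3, which promotes neuronal microexons, fell by 0.52 ± 0.12 (edgeR adjusted p = 0.00129, 0.0018 and 0.003). At 6 months Celf5 was lower (-0.57 ± 0.16) and Khdrbs1 (Sam68) higher (0.45 ± 0.10) in 5xFAD, with edgeR adjusted p = 0.0291 and 0.0101. In the interaction 3 rose and 4 fell, beside 25% of all tested genes called. The largest fall was in Celf5 (-0.96 ± 0.22), followed by Msi2 (-0.73 ± 0.12) and Celf1 (-0.62 ± 0.13), with edgeR adjusted p = 0.00267, 7.64e-05 and 0.00131.

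Genes known for exons regulated by these factors were listed as well, 32 in all with 31 tested. Of them 14 rose and 1 fell at 1 month, and 0 rose and 8 fell at 6 months, with medians of 0.42 and -0.19. Of all tested genes 19.6% and 6.38% were called in these comparisons. With age 9 rose and 1 fell in WT, and 0 rose and 17 fell in 5xFAD, beside 10.5% and 23.2% of all genes called. The mean transcript length of the libraries moved with these counts, and its part in them was not tested. Of their transcripts, 210 in 30 genes could be tested for share, and edgeR called 3 at 1 month, 1 at 6 months, 1 with age in WT, 3 with age in 5xFAD and 23, in 14 genes, in the interaction. Of all tested transcripts 0.294%, 0.156%, 0.17%, 0.384% and 2.69% were called. The 8 calls outside the interaction were all lost in a fit of only the 6 libraries compared (edgeR adjusted p between 0.11 and 0.161), which called 0 shares of any gene in each of the 4 comparisons.

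Ptbp2, the neuronal PTB protein that represses adult neuronal exons and is itself controlled by splicing, gave the shares with the smallest p at 1 month. Ptbp2-205 (chr3:119738722-119742768, minus strand), a retained-intron model, held 5.33%, 3.38% and 3.81% of Ptbp2 counts at 1 month in the WT libraries and 20.0%, 17.3% and 17.5% in the 5xFAD libraries. By 6 months the WT libraries stood at 16.2%, 14.3% and 10.8%, those of 5xFAD at 4.08%, 4.99% and 5.30%. Groups did not overlap at either age and stood in opposite order. The log2 odds were 2.38 ± 0.38 at 1 month (edgeR adjusted p = 0.043) and the interaction was -4.03 ± 0.53 (edgeR adjusted p = 0.00913). The 6-month genotype difference of Ptbp2-205 and its changes with age were not called (edgeR adjusted p = 0.0506 for the fall in 5xFAD). The 1-month call was lost in all 6 fits with 1 library left out (adjusted p from 0.053 to 0.135), and the interaction in none of 12 but without the 3 libraries richest in ribosomal RNA (0.0603).

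**Figure D5:**
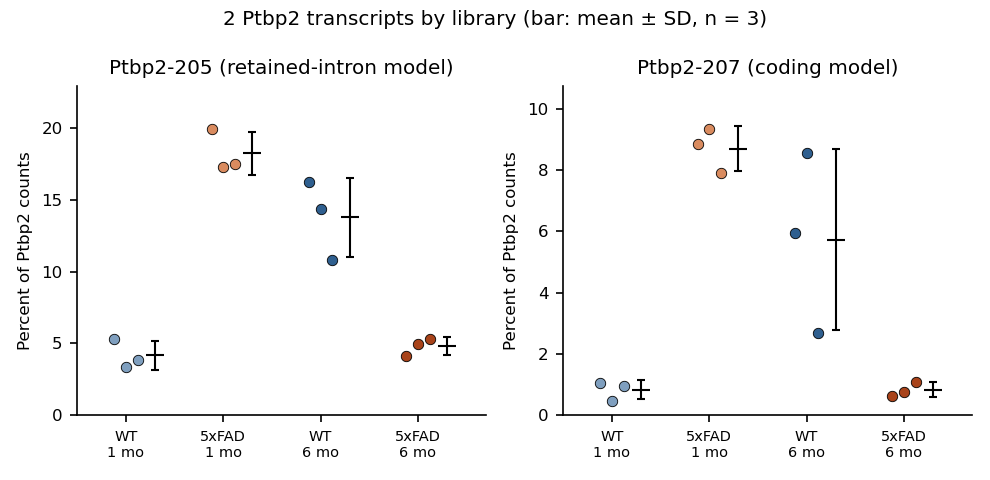
Percent of Ptbp2 counts on the retained-intron model Ptbp2-205 and on the coding model Ptbp2-207, by library (points) with the mean ± SD of each group of 3; axes start at 0. Ptbp2-205 lies at 3.38% to 5.33% in WT and 17.3% to 20.0% in 5xFAD at 1 month, and in the opposite order at 6 months.

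Ptbp2-207, a coding model of 1742 nt, moved in the same order, at 1.06%, 0.465% and 0.958% for WT libraries and 8.84%, 9.34% and 7.91% for 5xFAD libraries at 1 month (log2 odds 3.54 ± 0.55, edgeR adjusted p = 0.038). This call too was lost in all 6 fits with 1 library left out (adjusted p from 0.0583 to 0.127). The Ptbp2 gene total did not move with them. It was 162 ± 29.2 CPM in WT and 159 ± 15.7 CPM in 5xFAD at 1 month (log2 fold change -0.03 ± 0.11, edgeR adjusted p = 0.879) and was not called in any of the 5 comparisons. Camk2d-227, a retained-intron model of a calmodulin kinase gene, rose as a share at 1 month (log2 odds 2.72 ± 0.43, edgeR adjusted p = 0.043), a call lost in 5 of 6 such fits. Mef2d-203 of the transcription factor Mef2d was the one share called at 6 months (-2.10 ± 0.30, edgeR adjusted p = 0.0411), and it rose with age in WT (2.10 ± 0.30, edgeR adjusted p = 0.0421). These calls were lost in 4 of 6 and in 6 of 6 such fits, with adjusted p up to 0.193 and 0.201.

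Markers of the neurons in which these regulators are best known were measured beside them. Of all tested genes 19.6% were called at 1 month (10.7% higher, 8.91% lower) and 6.38% at 6 months (2.48% higher, 3.89% lower). Of 12 ganglion cell markers (most abundant Nefl and Thy1), 2 rose and 1 fell at 1 month and 0 rose and 1 fell at 6 months, with medians of 0.00 and 0.00. Their summed level was 1063 to 1137 CPM in WT and 1040 to 1110 CPM in 5xFAD at 1 month, which overlapped. Of 11 amacrine markers (Pax6 and Gad1 the most abundant), 2 rose and 0 fell at 1 month and 0 rose and 2 fell at 6 months, with medians of 0.09 and -0.15. Their sum was 1182 to 1284 CPM in WT and 975.7 to 1113 CPM in 5xFAD at 6 months, which did not overlap, and its part in the members' 6-month values was not tested. Horizontal cell markers summed to 453 to 505 CPM in WT and 513 to 564 CPM in 5xFAD at 1 month, and to 498 to 538 and 381 to 474 CPM at 6 months. Endothelial markers (Kdr and Flt1 the most abundant) stood in the same order, at 181 to 224 CPM in WT and 282 to 323 CPM in 5xFAD at 1 month and at 207 to 245 and 156 to 165 CPM at 6 months. Bipolar cell markers (1525 to 1736 CPM in WT and 1418 to 1478 CPM in 5xFAD) and Müller glia markers (4206 to 4659 and 3793 to 4002 CPM) were also apart at 6 months, and overlapped at 1 month. Cone markers were apart in the opposite order, at 1847 to 2077 CPM in WT and 1485 to 1644 CPM in 5xFAD at 1 month and 1617 to 1817 and 1921 to 2168 CPM at 6 months. At 1 month microglia markers (51.5 to 59.6 CPM in WT, 40.2 to 48.6 CPM in 5xFAD) and lens markers (0 to 0.797 and 5.91 to 66.3 CPM) did not overlap either. The part of these lists in the members' values was not tested. Pigment epithelium markers (Ttr and Rgr) summed to 80.4 to 159 CPM in WT and 31.2 to 43.2 CPM in 5xFAD at 1 month, and their part was not tested either. Of 80 ribosomal protein genes, 74 fell and 0 rose in 5xFAD at 1 month, and 39 rose and 1 fell at 6 months.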

How the data were processed

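Polyadenylated RNA from 12 whole-retina libraries (4 groups of 3) was prepared with an unstranded kit, per the labels' protocols. The authors deposited raw expected counts per gene and per transcript. RSEM 1.3.3, STAR 2.7.1a, DESeq2 1.32.0 and Trim Galore 0.6.6 stand in the submitters' processing notes with the build GRCm38.p6; the annotation release is not given in the sources used here. Totals were 10.9 to 19.6 M per library, and replicates differed by more than sampling noise.

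Here the counts were rounded and tested with edgeR 4.0.16 in R 4.3.3 (TMM, filterByExpr by group, robust quasi-likelihood fit of all 12 libraries, 8 residual degrees of freedom), with Benjamini-Hochberg adjustment over all genes and calls at an adjusted p below 0.05. The SE of a log2 fold change is its size divided by the square root of the F statistic. A transcript's share was tested in edgeR on paired columns (the transcript and the other transcripts of its gene) with a mean of at least 10 counts in each. Identifiers were matched to GENCODE M21 on GRCm38 (55227 genes, 141469 transcripts), which gave positions, lengths and sequences. An exon's inclusion is the count on models with it over that on models spanning it. Levels of single genes are TMM-scaled CPM, sums over marker lists are CPM without TMM scaling, and likeness used log2 CPM (prior count 2).

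The members and lists were chosen with earlier results of these data known. The rod and amacrine marker lists are each given without 1 gene, which is not reported here. All members are named; of related regulators and target transcripts, up to 4 with the smallest p per comparison; per member the most alike genes. Alternatives were DESeq2 1.42.0 (size factors, Wald test), library size alone, a filter of 1 count over all libraries, a filter of 1 CPM in 3, the replicate number as a block, only the 6 libraries compared, removal of the length and GC trend (splines with 4 degrees of freedom as an offset), omission of the 3 ribosomal-RNA-rich libraries, omission of pseudogene, mitochondrial and ribosomal RNA genes, and each replicate left out. Shares were also tested with at least 50 counts and with limma 3.58.1 on the logit with 0.5 added. The code was tested on simulated data. Figures used matplotlib 3.10.9.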

Additional observations from a re-analysis of the deposited data

Results flagged for a closer look

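The genotype difference was not the same at the 2 ages in 7 of the 10 genes, by the interaction term in edgeR. In log2 units, 6-month minus 1-month difference, it was -1.32 for Celf2, -1.30 for Rbfox1, -1.25 for Rbfox2, -1.24 for Nova2, -1.01 for Elavl3, -0.82 for Elavl2 and -0.56 for Celf4. In the same test 25% of all genes were called. The mean transcript length of the libraries moved with these differences. With the length and GC trend removed the term was -0.66 for Celf2, -1.19 for Rbfox1, -0.68 for Rbfox2 and -0.68 for Nova2. It was -0.69 for Elavl3 and -0.33 for Celf4, and Elavl2 was not called (-0.41). Nova1, not called as fitted, was then called in the other direction (1.28).

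The same term was called for the share of 4 transcripts, as fitted log2 odds of 6.19 for Rbfox1-201, -15.53 for Rbfox3-204, -11.43 for Rbfox2-213 and -11.16 for Elavl4-202. The last 3 rest on groups at 0, so their size depends on the small count the fit adds and is no bound.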

How the results depend on the processing

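Directions held widely and calls less so. Over the fits of each gene with the other scalings, filters and gene sets, all 10 genes kept their direction in the 5 comparisons. At 6 months the count of called members fell from 4 to 2 in a fit of only the 6 libraries compared and to 2 without the 3 libraries richest in ribosomal RNA, which left 1 library in 5xFAD, assumed to vary like the others; Celf2 and Rbfox1 were lost in both. Without those libraries fewer members, and fewer of all genes, were called with age in 5xFAD. The members' median log2 fold change was -0.47 there, against -0.61 in the main fit. With each replicate left out, the counts ran from 5 to 8 at 1 month, 2 to 5 at 6 months, 3 to 6 with age in WT, 5 to 6 with age in 5xFAD and 6 to 8 in the interaction. The same fits called 11.3% to 17% of all genes at 1 month and 1.64% to 10% at 6 months. With age they called 4.63% to 11% of all genes in WT and 15.2% to 23.8% in 5xFAD. The count of 2 at 6 months was reached without WT library 1 or 2 or 5xFAD library 1 or 2, and that of 3 with age in WT without WT 6-month library 2. All genes called at 6 months went from 1035 to 501 in the fit of 6 libraries and to 321 without the libraries rich in ribosomal RNA, while removing the trend of length and GC took them from 3178 to 1867 at 1 month and from 1035 to 1552 at 6 months. A filter of 1 count over all libraries added Elavl4 to the interaction (8 members called).

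Shares were less stable. At 1 month limma called 2 where edgeR called 0, at 6 months limma called 2 and a minimum of 50 counts gave 1, and with age in 5xFAD limma called 6 and the higher minimum 2. The 4 interactions became 9 with limma and 2 with the higher minimum, which only Elavl4-202 of the 4 met. Without the libraries rich in ribosomal RNA all but Rbfox1-201 of the 4 were lost. In the comparisons outside the interaction, limma also called a larger part of all tested transcripts, as given above. These counts describe the fits and are no result about the members. With each replicate left out, the share counts ran from 0 to 1 at 1 month and 0 to 5 in the interaction (0 without WT 6-month library 2), and were 0 in the other comparisons. Several of these fits called 0 shares of any gene (with age in WT, the block, the fit of 6 libraries and those without WT 1-month library 2 or WT 6-month library 1), so that a count of 0 there says nothing of stability.

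Libraries of the same number did not deviate together (correlations of -0.0852 to 0.0623), so numbers do not pair the samples. With the replicate number as a block, 0 of 34670 shares were called in any comparison, so that the 4 member interactions and all 31 called shares of target transcripts, Ptbp2, Mef2d, Camk2g and Snrnp70 included, were lost (edgeR adjusted p between 0.0585 and 0.271). The called members were 6, 4, 5, 6 and 6 in the order 1 month, 6 months, age in WT, age in 5xFAD and interaction, and Elavl2 lost both its calls (edgeR adjusted p = 0.0516 and 0.0607).

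Signs reversed in uncalled values of 3 items and in 1 called one. With each replicate left out, the change with age in WT ran from -0.114 (without WT 1-month library 1) to 0.16 for Rbfox3 and from -0.0013 (without WT 1-month library 3) to 0.472 for Elavl2, which stood at -0.0169 with the trend removed. The 1-month log2 odds of Elavl4-202 ran from -0.0634 (without WT 1-month library 3) to 1.88. Msi2, called lower with age in 5xFAD, stood at 0.0316 with the trend removed. The cause of these shifts was not tested. Depth limits the least counted members most: Elavl2 and Elavl4 had 125 and 133 counts in their lowest library. Transcripts with few counts can be listed at 0 by the estimate.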

Other observations

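Mef2d, a transcription factor of neurons and muscle whose exons differ between cell types, split its counts differently among the groups. Mef2d-203 (chr3:88142572-88168655, plus strand, 1791 nt) held 3.13%, 3.60% and 3.31% of Mef2d counts for WT libraries and 8.20%, 6.55% and 6.09% for 5xFAD libraries at 1 month. By 6 months the WT libraries stood at 12.3%, 14.9% and 11.8% and those of 5xFAD at 3.22%, 4.28% and 2.72%. The groups were apart at both ages, in opposite order, and the interaction was -3.19 ± 0.42 in log2 odds (edgeR adjusted p = 0.009). The most counted model, Mef2d-201 (5401 nt), went the other way, with an interaction of 2.54 ± 0.39 (edgeR adjusted p = 0.0158). With 1 library left out the call of Mef2d-203 was lost in 0 of 12 fits and that of Mef2d-201 in 2. Without the 3 libraries richest in ribosomal RNA the adjusted p were 0.0364 and 0.0729.

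Camk2g-205, a 663-nt model classed for nonsense-mediated decay of a calmodulin kinase gene, was listed at 0 in all 6 libraries of 1 month and held 1.08% to 1.90% of Camk2g counts in WT and 1.37% to 3.25% in 5xFAD at 6 months. Its share was called with age in 5xFAD (edgeR adjusted p = 0.0452) and not in WT (0.0744), and the difference between these was not among the called interactions. Snrnp70-201, of a core spliceosome component, held 11.7%, 15.7% and 10.2% in WT and 4.82%, 6.63% and 4.16% for 5xFAD libraries at 1 month, and rose with age in 5xFAD to 17.1%, 16.4% and 15.2% (log2 odds 1.84 ± 0.31, edgeR adjusted p = 0.0448). In a fit of only the 6 libraries compared both of these calls with age were lost (edgeR adjusted p = 0.141 and 0.126), as they were in 4 of 5 and 5 of 6 fits with 1 library left out.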
